A study of Mus musculus with 7 samples.

Results

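Parp9, Parp10, Parp11, Parp12, Parp14 and Dtx3l are genes of the antiviral branch of ADP-ribosylation. They were taken by gene symbol from the table of gene counts, where 6 of the 55401 rows belonged to them, and all 6 were among the 19199 genes that passed the filter on low counts. Male C57BL/6 mice aged 6 to 8 weeks had been injected in the dorsal part of the dentate gyrus with AAV-RAM-Cre, together with AAV-Dio-Atg7-Flag in the ATG7 group (3 libraries) or AAV-Dio-EYFP in the EYFP group (4 libraries). Cre from the RAM promoter, which responds to neuronal activity, switches on the second virus, so the groups shared the Cre virus and differed in the gene it released in engram neurons. RNA was sequenced from microglia that had been enriched from the hippocampus with CD11b beads. The labels do not say whether a library came from 1 mouse or from several, so the p-values measure the spread between these libraries.

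PARP enzymes take ADP-ribose from NAD+ and attach it to proteins. Most of the members described here are known as interferon-induced genes, and most of the enzymes among them attach single ADP-ribose units rather than chains. Parp9 carries macrodomains, which bind ADP-ribose, and works as a partner of the E3 ubiquitin ligase encoded by Dtx3l. Parp14, another macrodomain protein, is also known as a cofactor of STAT6. In microglia, as in macrophages, such genes are part of the response to type I interferon.

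Parp9, Dtx3l and Parp14 lie in 1 cluster on chromosome 16 in GRCm38. Parp9 (ENSMUSG00000022906, plus strand) runs from 35938470 to 35972605, Dtx3l (ENSMUSG00000049502, minus strand) from 35926511 to 35939151, and Parp14 (ENSMUSG00000034422, minus strand) from 35832874 to 35871544. Parp9 and Dtx3l are transcribed away from each other and overlap at their 5′ ends, where they share 458 exonic bases. That is 9.40% of the exonic length of Parp9 and 8.00% of that of Dtx3l, and reads from this stretch cannot be told apart without strand. Parp10 (ENSMUSG00000063268) lies on chromosome 15 from 76231174 to 76243441. Parp12 (ENSMUSG00000038507, 39086410 to 39118349) and Parp11 (ENSMUSG00000037997, 127446840 to 127494261) lie far apart on chromosome 6.

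Promoter windows from RefSeq (GRCm38.p6), 250 bases before to 50 after a gene start, were at hand for 3 of the 6 genes: Dtx3l, Parp12 and, with 2 alternative starts, Parp11. Parp9, Parp10 and Parp14 had no entry. The windows were searched on both strands for the core of the interferon-stimulated response element, GAAANNGAAA, bound by the interferon-activated complex that holds STAT2 and IRF9, and for the gamma-activated site TTCNNNGAA, bound by STAT dimers. They are shown as a description of the 3 genes with an entry. Whether either motif acts on the level of these genes was not tested. Capitals mark the matches.

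Dtx3l, chr16:35938978-35939277, minus strand: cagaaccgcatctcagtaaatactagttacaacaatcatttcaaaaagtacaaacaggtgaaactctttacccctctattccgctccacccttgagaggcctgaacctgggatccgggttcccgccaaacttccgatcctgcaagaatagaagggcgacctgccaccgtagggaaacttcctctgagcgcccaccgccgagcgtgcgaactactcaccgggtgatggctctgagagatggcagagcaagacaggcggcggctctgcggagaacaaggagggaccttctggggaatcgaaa

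Parp11, upstream start, chr6:127446590-127446889, plus strand: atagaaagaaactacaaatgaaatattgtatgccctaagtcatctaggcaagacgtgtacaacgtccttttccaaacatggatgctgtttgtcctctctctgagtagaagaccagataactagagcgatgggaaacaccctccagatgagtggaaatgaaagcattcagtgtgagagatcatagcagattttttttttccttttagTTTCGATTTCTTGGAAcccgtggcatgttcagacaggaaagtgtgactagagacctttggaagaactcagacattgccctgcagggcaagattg

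Parp12, chr6:39118300-39118599, minus strand: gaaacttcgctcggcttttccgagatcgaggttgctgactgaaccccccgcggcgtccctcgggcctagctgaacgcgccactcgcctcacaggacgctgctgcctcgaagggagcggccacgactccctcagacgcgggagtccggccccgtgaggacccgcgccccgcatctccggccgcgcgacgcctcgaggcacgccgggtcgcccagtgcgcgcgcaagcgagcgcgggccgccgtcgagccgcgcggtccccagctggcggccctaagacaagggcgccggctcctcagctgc

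The upstream Parp11 window held 1 response element core in reverse orientation, TTTCGATTTC, from 44 to 35 bases before the start. It overlapped 1 gamma-activated site, TTCTTGGAA, from 37 to 29 bases before the start. Neither motif occurred in the second Parp11 window, nor in those of Dtx3l or Parp12. Among all 32851 windows of this length, 3.44% held the response element core and 8.30% the gamma-activated site. The Dtx3l window, which starts from the RefSeq gene start, lies inside the annotated span of Parp9. Its GC content was 54.3%, against 42% and 59% in the Parp11 windows and 73.7% in that of Parp12.

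All 6 genes had a higher mean level in the microglia-enriched RNA of ATG7 mice. Of these, 3 passed the test: the chromosome 16 cluster of Parp14, Dtx3l and Parp9. The cluster rose by 1.69-fold for Parp14, 1.55-fold for Dtx3l and 1.43-fold for Parp9. Parp10 and Parp12 came close to the threshold without passing it, and Parp11 stayed well short of it. Levels are CPM, counts relative to the library total, after scaling between libraries, and the test was the quasi-likelihood F test of edgeR with p adjusted over all 19199 genes, two-sided, at a threshold of 0.05. By this rule 0.755% of all genes tested were called, 0.688% as higher and 0.0677% as lower in ATG7. An unadjusted p under 0.05 was found for 12% of genes, and the Wald test of DESeq2, run as an alternative, called 3.26%. In all 6 genes every ATG7 library lay above every EYFP library, a separation seen in 6.33% of genes tested (4.91% separated in the other direction), and the median log2 fold change was 0.51 over the 6 genes and -0.00365 over all genes. The 6 genes were put together with earlier results of these data known, so their shared direction is a description and carries no test of its own.

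Library totals ran from 35934210 to 55217119 counts, and the members had between 1006 and 9645 counts in a library. EYFP 1 and EYFP 3 were singled out after the data were seen, EYFP 1 only as the highest control for the members' mean. Without the highest control a fitted rise becomes larger by construction. EYFP 1 had the highest mean log2 level of the 6 genes within its group, 5.96 against 5.64 to 5.78 in EYFP 2, 3 and 4 and 6.12 to 6.35 in ATG7. EYFP 3, from mice labelled male, had 939 CPM of the X-linked transcript Xist against 0.151 to 0.574 CPM in the other libraries, and 27.6 CPM of the Y-linked gene Ddx3y against 121 to 169 CPM. The number of genes called, 145 in the full data, was 277 without EYFP 1, 94 without EYFP 2, 164 without EYFP 3, 30 without EYFP 4, 148 without ATG7 1, 28 without ATG7 2 and 30 without ATG7 3. The labels of the enriched cells were checked against 10 microglial markers, among them Csf1r at 5780 to 7230 CPM and P2ry12 at 2330 to 3500 CPM. Choroid plexus transcripts were abundant in both groups (46760 to 72760 CPM summed over 9 markers). The 10 microglial markers summed to less in every library, 21850 to 26800 CPM. These sums were not divided by exonic length and do not measure shares of cells. Neuronal markers summed to 48.1 to 177.7 CPM, with the highest sum in EYFP 1. They were uneven: Camk2a ran from 4.83 CPM in EYFP 3 to 110.7 CPM in EYFP 1. The inhibitory neuron gene Gad2 reached at most 0.246 CPM in any library.

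**Figure D1:**
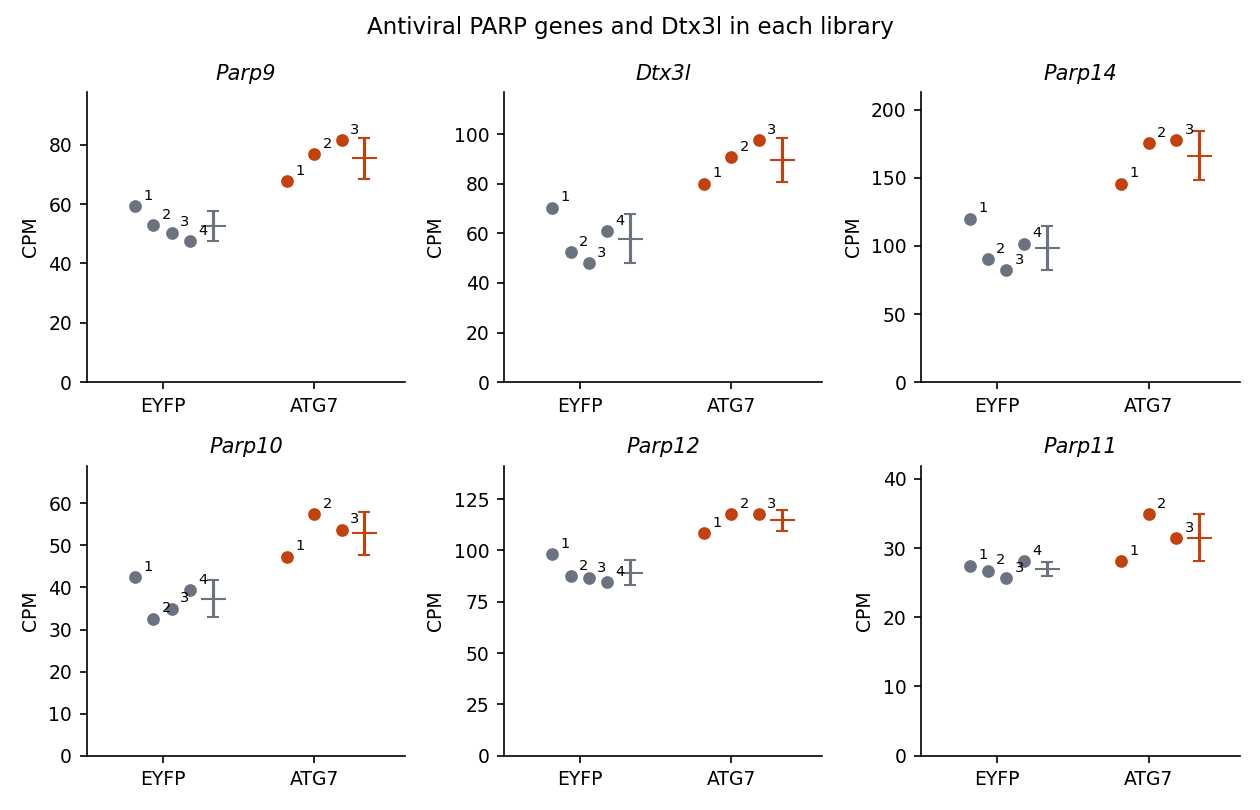
CPM of each gene (vertical axes, from 0) in the 4 EYFP and 3 ATG7 libraries, numbered by replicate; the bar beside each group is the mean ± 1 SD. Every ATG7 point lies above every EYFP point, with the widest gap for Parp14 and almost none for Parp11 (28.1 CPM in both EYFP 4 and ATG7 1).

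Parp14, the macrodomain mono-ADP-ribosyltransferase, had 119.9, 90.3, 82.1 and 101.7 CPM in the EYFP libraries 1 to 4. Its ATG7 libraries 1 to 3 had 145.6, 175.5 and 177.4 CPM. EYFP 1 was the highest control library and EYFP 3 the lowest, and the groups did not overlap: the lowest ATG7 library stood 1.21 times above the highest EYFP library. The mean was 98.5 ± 16.4 CPM (SD, n = 4) in controls and 166.2 ± 17.9 CPM (SD, n = 3) in ATG7. On the log2 scale the fitted rise was 0.76 ± 0.123 (SE), with an edgeR adjusted p of 0.0206. By p this was rank 66 of 19199 genes. The call held without EYFP 1 (log2 fold change 0.86, adjusted p = 0.00330), without EYFP 3 (0.67, adjusted p = 0.0293) and without ATG7 1 (0.84, adjusted p = 0.0238). It was lost without EYFP 2 (0.71, adjusted p = 0.0669), EYFP 4 (0.77, adjusted p = 0.0759), ATG7 2 (0.71, adjusted p = 0.103) or ATG7 3 (0.70, adjusted p = 0.123).

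Dtx3l, the E3 ligase, had 70.4, 52.5, 47.9 and 60.8 CPM in control libraries EYFP 1 to 4 against 80.1, 90.9 and 97.5 CPM in ATG7 1 to 3. The order of the libraries from low to high was that of Parp14 throughout. The control mean of 57.9 ± 9.90 CPM (SD, n = 4) compared with 89.5 ± 8.78 CPM (SD, n = 3) in ATG7, a fitted log2 rise of 0.63 ± 0.123 (SE). Its edgeR adjusted p was 0.0484, the closest to the threshold of the 3 calls. Without EYFP 1 the change was 0.74 (adjusted p = 0.00632). Leaving out any other single library ended the call, with an adjusted p of 0.133 without EYFP 2, 0.0653 without EYFP 3, 0.112 without EYFP 4, and 0.0542, 0.188 and 0.217 without ATG7 1, 2 and 3. It also ended under the 3 other scalings and with a filter at a mean of 1 CPM (adjusted p from 0.0502 to 0.0726).

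Parp9, the macrodomain partner of Dtx3l, had 59.4, 52.9, 50.4 and 47.6 CPM in EYFP 1 to 4 against 67.7, 76.9 and 81.5 CPM in ATG7 1 to 3. EYFP 1 was again the highest control, while the lowest was EYFP 4. The control mean was 52.6 ± 5.03 CPM (SD, n = 4) and that of ATG7 75.4 ± 7.0 CPM (SD, n = 3). The fitted log2 rise was 0.52 ± 0.0902 (SE), at an edgeR adjusted p of 0.0262. The call held without EYFP 1 (0.58, adjusted p = 0.00775), EYFP 2 (0.52, adjusted p = 0.0495) or ATG7 1 (0.59, adjusted p = 0.0251). It was lost without EYFP 3 (0.49, adjusted p = 0.0582), EYFP 4 (0.48, adjusted p = 0.0971), ATG7 2 (0.51, adjusted p = 0.118) or ATG7 3 (0.45, adjusted p = 0.152).

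Parp10, a mono-ADP-ribosyltransferase that also binds ubiquitin, had 42.4, 32.6, 34.99 and 39.4 CPM in EYFP 1 to 4 against 47.3, 57.5 and 53.8 CPM in ATG7 1 to 3. The groups were apart by a factor of 1.12 at their nearest libraries. The log2 fold change, 0.50 ± 0.101 (SE), was about that of Parp9, but the edgeR adjusted p was 0.0505. Without EYFP 1 the value was 0.57 (adjusted p = 0.0172). Parp10 shares 205 exonic bases, 4.80% of its exonic length, with its neighbour Plec on the same strand. Plec, which encodes the cytoskeletal linker plectin, had 80.1 ± 5.12 CPM (SD, n = 4) in controls against 78.5 ± 5.46 CPM (SD, n = 3), with a log2 fold change of -0.0291 (edgeR adjusted p = 0.925).

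Parp12, a mono-ADP-ribosyltransferase with zinc fingers of the kind that bind RNA, had 98.1, 87.5, 86.6 and 84.6 CPM in EYFP 1 to 4 against 108.5, 117.8 and 117.5 CPM in ATG7 1 to 3. Within each group its libraries lay close together, with a coefficient of variation of 6.80% in EYFP and 4.62% in ATG7, against 16.6% and 10.8% for Parp14. The log2 fold change was 0.36 ± 0.0739 (SE, edgeR adjusted p = 0.0529). Without EYFP 1 it was 0.41 (adjusted p = 0.0188). Parp10 and Parp12 were each called in 5 of 16 other settings. Their adjusted p was lowest with DESeq2, at 0.00126 and 0.00105. Among fits without 1 library it reached 0.237 for Parp10 (without ATG7 2) and 0.238 for Parp12 (without ATG7 3).

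Parp11, a mono-ADP-ribosyltransferase that has been linked to the nuclear envelope, had 27.5, 26.7, 25.7 and 28.1 CPM in EYFP 1 to 4 against 28.1, 34.95 and 31.5 CPM in ATG7 1 to 3. EYFP 4 and ATG7 1 were level, so the separation of the groups rested on a difference in the second decimal. The log2 fold change was 0.22 ± 0.0868 (SE, edgeR adjusted p = 0.330, unadjusted p = 0.0253), and by p the gene stood at rank 1469. Parp11 was called in none of the 16 other settings tried, where its log2 fold change ran from 0.14 to 0.30. The upstream window of this gene carries the TTTCGATTTC match printed above. Whether that start is used in these cells, and whether the match acts on the level of Parp11, was not tested.

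**Figure D2:**
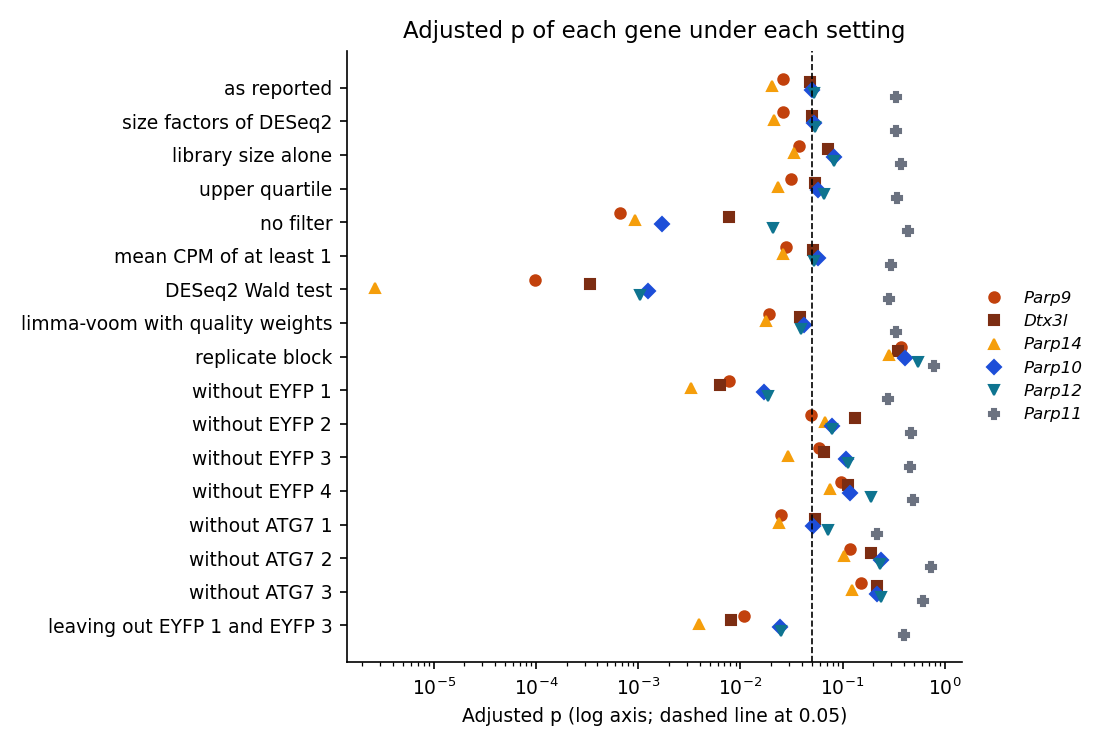
Adjusted p of each gene (horizontal log axis, dashed line at 0.05) in the reported fit and in 16 other settings listed on the vertical axis. Parp9 and Parp14 lie left of the line in 11 of the 16 other settings each, Dtx3l, Parp10 and Parp12 in 5 each, and Parp11 stays to the right of it throughout.

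Levels of the 6 members were compared with one another only after division by exonic length (CPM per kb). In EYFP, Parp12 was highest at 22.3 ± 1.52 CPM per kb (SD, n = 4), followed by Parp9 at 10.8 ± 1.03, Parp14 at 10.6 ± 1.76, Dtx3l at 10.1 ± 1.73 and Parp10 at 8.74 ± 1.03. Parp11 was lowest at 3.84 ± 0.150. In this order the 3 cluster genes lay within their spread of one another. Parp9 was above Parp10 in each EYFP library, and the ranges of Parp10 and Dtx3l overlapped, while Parp12 and Parp11 stood clear. In ATG7, Parp12 was at 28.7 ± 1.33 CPM per kb (SD, n = 3), Parp14 at 17.9 ± 1.92, Dtx3l at 15.6 ± 1.53, Parp9 at 15.5 ± 1.44, Parp10 at 12.4 ± 1.2 and Parp11 at 4.49 ± 0.487. The order was unchanged apart from the cluster genes, among which Parp14 moved from second to first. Dtx3l and Parp9, whose proteins pair with each other, were within their spread of one another in both groups.

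Whether the members differed in response was asked with the log2 ratio of CPM of each of the 15 pairs within a library, a quantity free of the scaling between libraries. Exact permutation tests, two-sided, with 4 libraries against 3 can give no p below 0.0286. This value was reached by 4 pairs, and after adjustment over the 15 pairs none passed (smallest adjusted p = 0.107). With this floor a pair can pass only if many of the 15 reach it, so the adjusted values do not show equal responses. The ratio of Parp14 to Dtx3l was very even among controls, at 0.77, 0.78, 0.78 and 0.74 in the 4 controls, and higher in each ATG7 library, at 0.86, 0.95 and 0.86. The difference was 0.125 on the log2 scale (exact permutation p = 0.0286). The ratio of Parp12 to Parp14 went from -0.13 ± 0.176 (SD, n = 4) to -0.53 ± 0.0932 (SD, n = 3), a difference of -0.40 (exact permutation p = 0.0286). That of Parp10 to Parp14 differed by -0.26 and that of Parp9 to Parp12 by 0.16, each with the same exact permutation p of 0.0286.

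Parp9 and Dtx3l kept no fixed ratio among controls. Their log2 ratio was -0.25, 0.01, 0.07 and -0.35 in EYFP 1 to 4, against -0.24, -0.24 and -0.26 in ATG7 1 to 3. The ATG7 libraries lay inside the control range and the groups did not differ beyond it (difference -0.12, exact permutation p = 0.400). The largest difference of any pair, -0.55 for Parp11 to Parp14, had an exact permutation p of 0.0571.

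**Figure D3:**
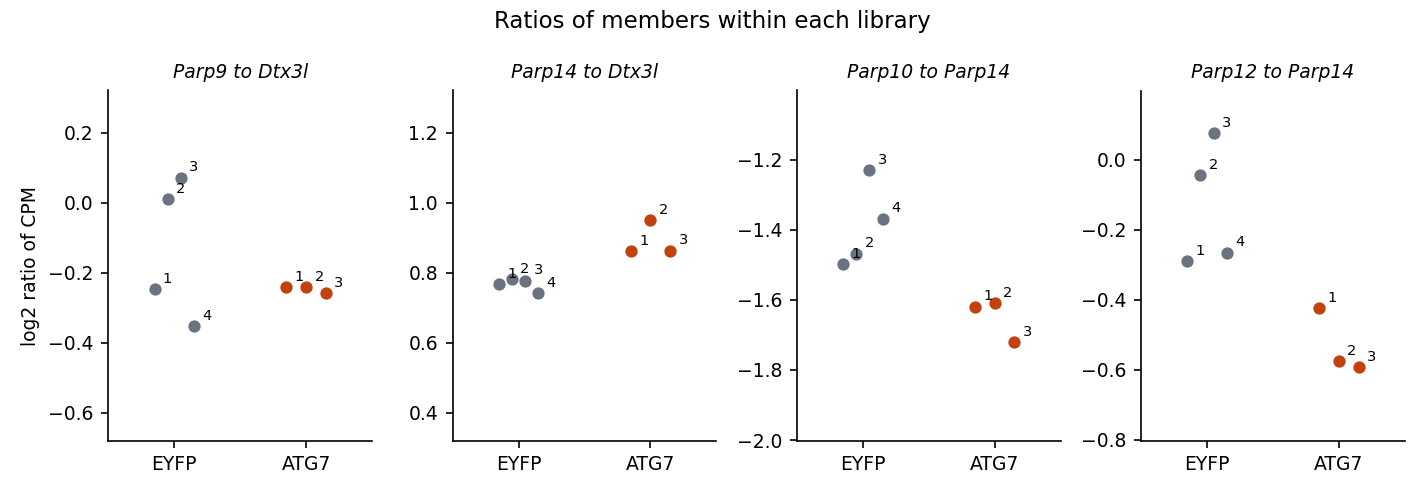
Log2 ratio of CPM for 4 pairs of genes (vertical axes, each spanning the same range) in every library, numbered by replicate. Parp14 to Dtx3l is tight within EYFP and higher in ATG7; Parp9 to Dtx3l is spread in EYFP and overlaps.

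Within groups the members also varied together. Taking each library's deviation from its group mean of log2 CPM, Parp14 and Dtx3l had a Pearson r of 0.986 over the 7 libraries and Parp9 and Parp12 one of 0.946. For Parp9 and Dtx3l, which overlap in the genome, it was 0.662. The lowest value among the 15 pairs was 0.410, for Parp9 and Parp11. Against the mean of the other members, r ran from 0.633 for Parp11 to 0.969 for Parp14. These are descriptions of 7 libraries that share their scaling and the position of EYFP 1 above the other controls.

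The genes whose log2 level followed the mean of the 6 members most closely, among 15045 other genes with a mean of at least 1 CPM, were Trim30a (r = 0.998 over 7 libraries), Psmb9 (0.995), Mx2 (0.993), Rnf213 (0.992) and Tap1 (0.992). Trim30a encodes a tripartite motif protein, Psmb9 an immunoproteasome subunit, Mx2 an interferon-induced GTPase, Rnf213 a large E3 ligase and Tap1 a peptide transporter of antigen presentation. By deviations from the group means, which leave out the difference between groups, the closest were Trim30a (0.990), Tent4a (0.988), Tap1 (0.983), Il27 (0.976) and Psmb9 (0.971). Each list holds the highest of 15045 values from 7 libraries, so these r were selected for being high and carry no test. Tent4a, a non-canonical poly(A) polymerase, and the cytokine subunit gene Il27 did not pass between the groups (log2 fold change 0.29 and 0.39, edgeR adjusted p = 0.216 and 0.445). Trim30a went from a mean of 93.1 CPM to 146 CPM, a log2 fold change of 0.65 (edgeR adjusted p = 0.0262).

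The genes beside the chromosome 16 cluster gave no call. Within 250 kb of the Dtx3l start, 9 other protein-coding genes are annotated and 6 passed the filter. None of the 6 was called by edgeR or by DESeq2, and none had an unadjusted p under 0.05. Hspbap1, next to Parp14, had 9.85 ± 0.851 CPM (SD, n = 4) in controls against 10.2 ± 0.469 CPM (SD, n = 3), with a log2 fold change of 0.0462 (edgeR adjusted p = 0.918). Kpna1, an importin gene next to Parp9, had 88.4 ± 3.24 CPM (SD, n = 4) in controls against 88.4 ± 6.20 CPM (SD, n = 3). Dirc2, Wdr5b, Fam162a and Ccdc58 had log2 fold changes of -0.17, -0.0578, -0.0389 and 0.0620 (edgeR adjusted p = 0.524, 0.918, 0.938 and 0.880).

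**Figure D4:**
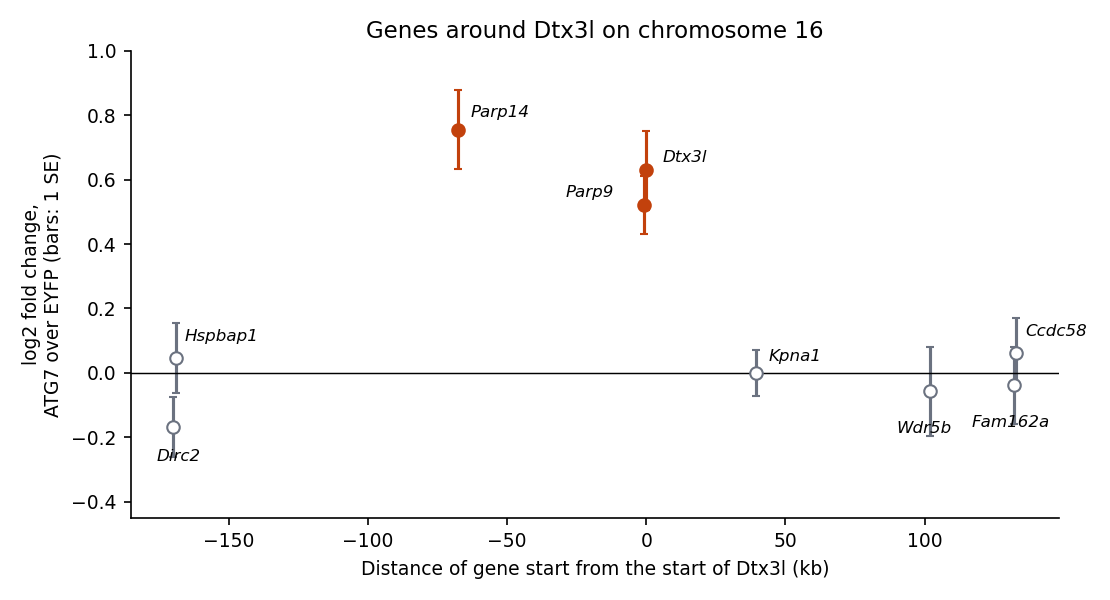
Log2 fold change ± 1 SE (vertical axis) of the 9 tested protein-coding genes around Dtx3l against the distance of their start from that of Dtx3l (horizontal axis, kb); filled points have an adjusted p under 0.05. Parp14, Parp9 and Dtx3l lie between 0.52 and 0.76 and their neighbours near 0.

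The rest of the PARP family gave no call. Of 11 other members tested, 0 passed with edgeR, 1 had an unadjusted p under 0.05, and the same number was called by DESeq2. The median log2 fold change of these 11 was 0.0816. The nearest to a call was Zc3hav1, the zinc finger antiviral protein, a family member that lacks catalytic activity. It had 78.5, 60.3, 67.9 and 64.5 CPM in EYFP 1 to 4 against 79.7, 91.5 and 88.4 CPM in ATG7 1 to 3, with EYFP 1 just below the lowest ATG7 library. Its fitted log2 difference of 0.35 ± 0.0925 (SE, edgeR adjusted p = 0.139) was close to that of Parp12. The DNA repair enzymes Parp1 and Parp2 had log2 fold changes of 0.11 and 0.0533 (edgeR adjusted p = 0.654 and 0.857).

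**Figure D5:**
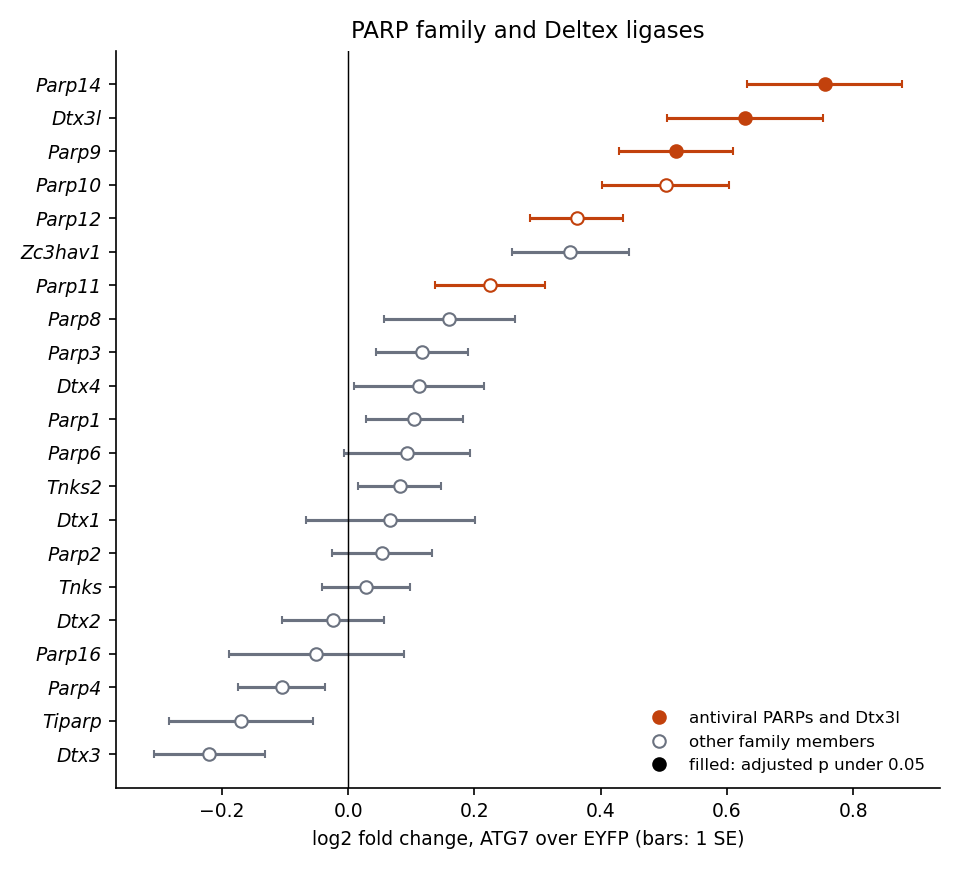
Log2 fold change ± 1 SE (horizontal axis) of the 6 genes described here, the 11 other PARP family genes and 4 other Deltex ligase genes; filled points have an adjusted p under 0.05. Parp14, Dtx3l and Parp9 are filled, and Zc3hav1 lies between Parp12 and Parp11.

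Among the relatives of Dtx3l, Dtx1, Dtx2, Dtx3 and Dtx4, edgeR called 0 and DESeq2 0. Dtx3 had the smallest p and had 82.8 ± 7.33 CPM (SD, n = 4) in controls against 71.1 ± 6.34 CPM (SD, n = 3), with a log2 fold change of -0.22 (edgeR adjusted p = 0.347, unadjusted p = 0.0296). Genes that remove or read ADP-ribose gave 0 calls of 11 tested with edgeR, 1 with DESeq2 and 1 at an unadjusted p under 0.05. This was Trpm2, a cation channel opened by ADP-ribose, with 94.2 ± 18.4 CPM (SD, n = 4) in controls against 133 ± 11.9 CPM (SD, n = 3), with a log2 fold change of 0.50 (edgeR adjusted p = 0.179). The hydrolase gene Parg, whose product degrades ADP-ribose chains, was at a log2 fold change of 0.0702 (edgeR adjusted p = 0.783). Of 13 genes of NAD metabolism, edgeR and DESeq2 both called 0, with 3 at an unadjusted p under 0.05, against 12% of all genes. The smallest p was that of Nampt, the rate-limiting enzyme of NAD salvage (log2 fold change 0.33, edgeR adjusted p = 0.179).

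Genes of interferon signalling rose in part, and their order relative to the members was not tested. The list of 14 genes held receptors, kinases, transcription factors and genes that restrain the signal. All had a log2 fold change above 0, as did 49.2% of all genes tested, with a median of 0.21. EdgeR called 3, against 0.755% of all genes, and DESeq2 called 5, against 3.26%. Stat2, part of the complex that binds the response element, had 69.3, 48.6, 44.9 and 54.8 CPM in EYFP 1 to 4 against 94.6, 110.1 and 106.9 CPM in ATG7 1 to 3, a log2 fold change of 0.94 (edgeR adjusted p = 0.0137). Every ATG7 library stood above EYFP 1, the highest control. Usp18, which restrains receptor signalling, rose by 1.49 on the log2 scale (edgeR adjusted p = 0.0420), and the transcription factor gene Irf1 by 0.53 (edgeR adjusted p = 0.0483). Irf9, the DNA-binding subunit of that complex, had 0.38 (edgeR adjusted p = 0.0590). The receptor genes Ifnar1 and Ifnar2 had 0.18 and 0.14 (edgeR adjusted p = 0.435 and 0.535). A list around IL-4 and STAT6, the pathway in which Parp14 acts as a cofactor, had 1 edgeR call among 10 tested. DESeq2 called 3 of this list, and the shares over all genes are those given above. The edgeR call was Il2rg, the common gamma chain of cytokine receptors, with a rise of 1.31 (edgeR adjusted p = 0.0118). Stat6 itself had 0.15 (edgeR adjusted p = 0.512).

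The summed lymphocyte markers were higher in each ATG7 library than in any EYFP library. This gives the smallest p that 4 against 3 libraries allow, and it did not pass after adjustment. A single list at that p cannot pass adjustment over 8 lists, so the adjusted value decides nothing. The 6 markers summed to 7.69 to 12.6 CPM in EYFP and 13.0 to 23.4 CPM in ATG7 (exact permutation p = 0.0286, two-sided, 0.229 after adjustment over 8 marker lists). Cd4 was the largest part of the sum, with means of 6.96 CPM in EYFP and 8.21 CPM in ATG7. Its groups overlapped (log2 fold change 0.238, edgeR adjusted p = 0.581). Cd3d was near the floor: its 0.0443 CPM in EYFP 3 lay under the 0.0665 CPM that 3 counts give there. Cd3d had at most 0.319 CPM in EYFP and 0.575, 0.582 and 1.70 CPM in ATG7 1 to 3, and Cd8a at most 1.02 CPM in EYFP and 1.05, 1.57 and 3.89 CPM. ATG7 3 was the highest library for both, and without it the ATG7 mean was 0.579 rather than 0.952 CPM for Cd3d and 1.31 rather than 2.17 CPM for Cd8a. EdgeR called 0 of the 6 singly. An unadjusted p under 0.05 was found for 4, against 12% of all genes tested, and DESeq2 called 3, against 3.26% of all genes. Summed markers of microglia, neurons, astrocytes, oligodendrocyte lineage, endothelial and mural cells, choroid plexus, and border and blood myeloid cells overlapped between the groups (exact permutation p from 0.257 to 0.943). Among the border and blood myeloid markers edgeR called 0 of 10 and DESeq2 1, and 2 had an unadjusted p under 0.05: Plac8 and Ly6c2, with log2 fold changes of 1.45 and 1.47 (edgeR adjusted p = 0.128 and 0.330). All 9 choroid plexus markers had a log2 fold change below 0, with a median of -0.27, 0 called by edgeR or DESeq2 and 3 at an unadjusted p under 0.05. In RNA from an enriched mixture, more cells of a type and more RNA per cell cannot be told apart, and the part of these other cells in the levels of the members was not tested.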

How the data were processed

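Raw gene counts of 7 libraries, as deposited by the authors, were used. The submitters' processing notes name fastp 0.20.1, HISAT2 2.0.5 and featureCounts and the mm10 (GRCm38) build; the annotation release, strand setting and treatment of shared reads are not given in the sources used here. Columns were matched to libraries by name and groups taken from the titles. Symbols, positions and exonic lengths came from GENCODE M21, which matched 55141 of 55401 identifiers. ATG7 was compared with EYFP with edgeR 4.0.16 (R 4.3.3), with TMM scaling, filterByExpr, a robust quasi-likelihood fit and no covariate, over all 7 libraries. SE was derived as the size of the log2 fold change over the root of its F statistic. Log2 CPM used a prior count of 2, and ratios were tested by exact permutation. Libraries of a group differed beyond sampling noise (chi-square per degree of freedom 19.6 to 41.8).

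The members and gene lists were chosen with earlier results of these data known. Named genes are the members, the neighbours of Dtx3l, the genes closest in pattern, and from each list up to 3 passing genes with the smallest p or, with none, the 1 with the smallest p; others were named after their values were seen. One gene of the signalling list is not reported here. Alternatives were other scalings and filters, DESeq2 1.42.0, limma-voom (limma 3.58.1), a replicate block, each library left out, and a prior count of 0.5.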

Additional observations from a re-analysis of the deposited data

How the results depend on the processing

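All 6 members kept a log2 fold change above 0 in the 16 other settings, and among their 96 results 27 stayed called, 38 stayed without a call, 21 lost a call and 10 gained one. Leaving out 1 library at a time, the log2 fold change ran from 0.45 to 0.59 for Parp9, 0.44 to 0.58 for Parp10, 0.14 to 0.30 for Parp11, 0.34 to 0.41 for Parp12, 0.67 to 0.86 for Parp14 and 0.54 to 0.74 for Dtx3l, and the number of genes called from 28 to 277. Dtx3l was no longer called with the size factors of DESeq2 (0.62, adjusted p = 0.0502), library size alone (0.60, 0.0726), upper quartile scaling (0.62, 0.0534) or a mean CPM of at least 1 (0.62, 0.0510). Parp10 and Parp12 gained a call with no filter (0.50 and 0.36), DESeq2 (0.50 and 0.36) and limma-voom (0.49 and 0.37). Without EYFP 1 they gained one too (0.57 and 0.41). The same held without EYFP 1 and EYFP 3 together (0.54 and 0.40), a setting chosen after seeing the data. The count of genes called was 297 with no filter (234 higher, 63 lower), 572 with DESeq2 (404 higher, 168 lower) and 710 without EYFP 1 and EYFP 3 (261 higher, 449 lower), against 145 (132 higher, 13 lower). The causes were not tested. The 15 ratios moved by less than the spread between libraries with a prior count of 0.5 and without each library, where 6 libraries allow no p under 0.05, so that no call could be made.

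With the replicate number as a block, edgeR called 0 genes (1256 at an unadjusted p under 0.05), and Parp9 (0.47, adjusted p = 0.376), Parp14 (0.78, 0.286) and Dtx3l (0.67, 0.346) were no longer called. Deviations of same-numbered libraries correlated at -0.0609, -0.182 and 0.0664, so the numbers are not shown to pair the libraries, and EYFP 1 was closest to ATG7 2 (0.215).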
